A study of Mus musculus with 6 samples.

Results

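The genes described here are 52 members of the TGF-beta, BMP and myostatin signalling system, taken by gene symbol from a named list out of 54232 genes counted in the muscle of mice with and without exon 51 of Dmd, the dystrophin gene. They comprise 15 ligands, 1 processing protease, 4 latent TGF-beta binding proteins, 11 receptors, 6 extracellular antagonists or follistatin-like proteins, 8 Smads, 2 co-repressors, 2 ubiquitin ligases and 3 Id genes. The rule uses gene symbols and no measured value, but the list was drawn up with earlier results of these data known.

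Ligands of this superfamily are secreted dimers that assemble a pair of type I with a pair of type II serine/threonine kinase receptors. The TGF-beta, activin and myostatin branch then phosphorylates Smad2 and Smad3, the BMP branch phosphorylates Smad1, Smad5 and Smad9, and both branches use the common partner Smad4. In skeletal muscle, myostatin restrains fibre growth, BMP signals promote it, and TGF-beta is best known for driving matrix production by fibroblasts. Latency proteins, proteases and antagonists set how much ligand can reach a receptor, and the inhibitory Smads, Ski, Skil and the Smurf ligases dampen the signal inside the cell.

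Strand-marked mRNA libraries came from tibialis anterior, a fast muscle of the lower leg, of C57BL6 mice aged 1 month. The control group was 3 wild-type samples (WT 1, WT 2 and WT 3). The other group was 3 samples with the Dmd exon 51 deletion, which the labels write as D51 or Delta 51 (D51 4, D51 5 and D51 6). No source used here gives a treatment, the origin of the deletion line or the number of founder lines, and the samples of a genotype are called biological replicates, without a statement on litter, sex or day, so the p-values measure the spread between these samples. The comparison asks how expression in this muscle differs when exon 51 is missing.

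Library totals ran from 15681945 to 21020353 counts assigned to genes. Values below are CPM, counts scaled to the library total, after trimmed-mean (TMM) scaling, and log2 fold changes are D51 over WT with a standard error (SE) taken from the test. Dmd itself was at 235, 249 and 266 CPM in WT against 47.7, 46.4 and 51.1 CPM in D51. That is a log2 fold change of -2.37 (SE 0.0944, edgeR adjusted p = 2.77e-05), and every D51 library was below every WT library. The labels give the deletion and no expression level, and counts over the whole gene cannot show the loss of a single exon. The muscle fibre markers were abundant in every library, in sum 158563 to 160447 CPM in WT and 101256 to 141061 CPM in D51, and edgeR called 0 of the 10. Of these markers 5 were lower at an unadjusted p under 0.05, and DESeq2 called 6 lower and limma-voom 3. Mitochondrial genes took 19.4% to 21.05% of counts in WT and 13.4% to 14.8% in D51, and the TMM factor was 0.869 to 0.898 for WT libraries and 1.04 to 1.19 for those of D51. When only library totals were used for scaling, the median over all genes of the log2 fold change went from -0.01 to 0.34 and the share of calls that were higher from 57.6% to 94.2%. The changes below are relative to the TMM scale.

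Of the 52 members, 47 had enough counts to be tested, and 16 of these passed edgeR's quasi-likelihood test at a Benjamini-Hochberg adjusted p under 0.05 over all 14335 genes tested, 12 higher and 4 lower in D51. That is 34.0% of the tested members, beside 28% of all genes tested. Calls in the higher direction made up 16.1% of all genes and calls in the lower direction 11.9%. The median log2 fold change was 0.06 over the tested members and -0.01 over all genes tested. In 23 of the 47 the D51 libraries lay wholly above (14) or wholly below (9) the WT libraries, where 45.5% of all genes did so (23.8% above and 21.7% below). Both shares of the members lie near those of all genes, so what follows is about individual members. The 12 that rose were Tgfb1, Inhbb, Bmp1, Ltbp2, Acvrl1, Tgfbr2, Fst, Fstl1, Smad9, Skil, Id1 and Id2. The 4 that fell were Mstn, Bmp6, Acvr2b and Smad4.

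**Figure D1:**
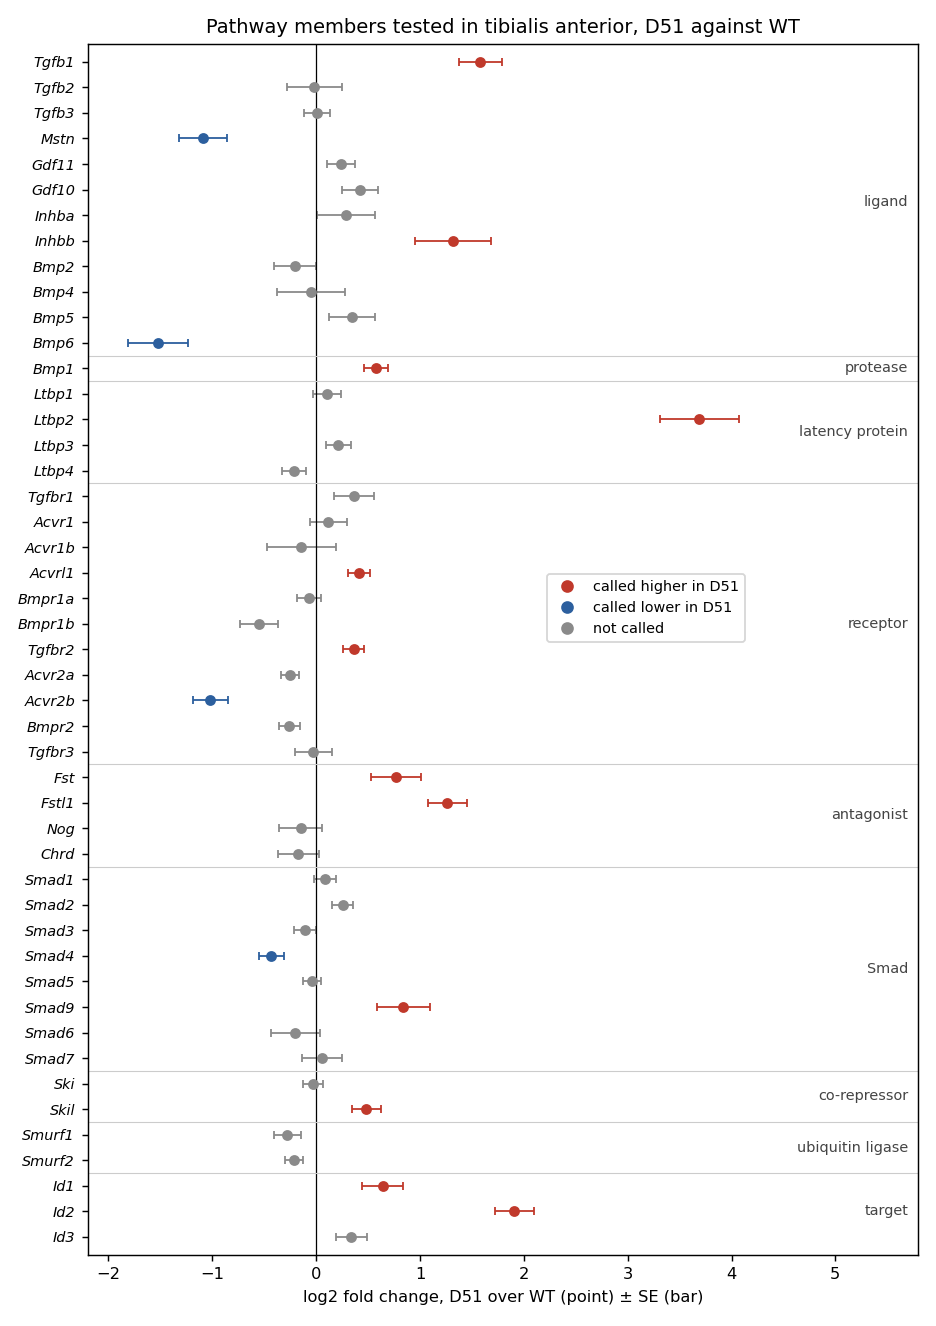
Log2 fold change, D51 over WT, of the 47 tested members by role. Points are the fitted values, bars are ± SE, red marks members called higher, blue members called lower, grey members not called. Ltbp2 lies farthest to the right at 3.69 and Bmp6 farthest to the left at -1.52, while most receptors, Smads and BMP antagonists lie within 0.5 of 0.

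The 5 members with too few counts to test were ligands and antagonists. Gdf5 had 0 counts in every WT library and 1, 4 and 0 in D51, and Grem1, a BMP antagonist, had a single count in D51 4 and 0 elsewhere. Gdf15, a stress-induced ligand, had 2, 0 and 0 counts in WT and 7, 6 and 3 in D51. Bmp7 had 14, 5 and 4 counts in WT and 6, 7 and 6 in D51. Fstl3, a follistatin-like binder of activin and myostatin, had 5, 3 and 2 counts in WT and 9, 4 and 3 in D51. None of these supports a fold change at this depth.

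Among the TGF-beta ligands, Tgfb1 rose and its paralogs did not pass the test. Tgfb1 (ENSMUSG00000002603, chr7:25687002-25705077, plus strand, GRCm38) encodes the prototype of the family. It was at 10.7, 7.73 and 9.31 CPM in WT 1 to WT 3 and at 30.2, 32.7 and 19.99 CPM in D51 4 to D51 6. Every D51 library was above every WT library, with D51 6 the lowest of its group. The means were 9.24 ± 1.48 and 27.6 ± 6.73 CPM (SD, n = 3 each), a 2.99-fold rise (log2 1.58, SE 0.204, edgeR adjusted p = 0.00191). Tgfb2 was at 40.9, 21.97 and 21.6 CPM in the WT libraries, and the D51 libraries were at 34.8, 24.8 and 23.9 CPM, with overlapping groups and a log2 difference of -0.02 (SE 0.263). Tgfb3 averaged 40.1 ± 6.62 CPM in WT and 40.3 ± 3.24 CPM in D51 (log2 0.01, SE 0.129).

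The share of Tgfb1 in the 3 TGF-beta ligands, counted per exon length, was 9.10%, 9.61% and 11.3% in WT and 24.2%, 30.0% and 19.6% in D51. Tgfb3 supplied the larger part in every library, 64.4 ± 3.32% in WT and 53.9 ± 5.33% in D51. In CPM, without exon length, Tgfb3 was also above Tgfb1 in every library, but in D51 5 only by 36.7 against 32.7 CPM. A share does not depend on the library scaling, but it does depend on the exon length used. The exact two-sided permutation test over the 6 libraries gave p = 0.1 for both, the smallest that 3 against 3 allows, and 0.195 after adjustment over 37 such shares, so no share could pass a threshold of 0.05.

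All 12 of the macrophage and monocyte markers rose in D51, from a summed 71.5 to 146 CPM in WT to 547 to 1245 CPM, and none was at 0 in the WT group. Within D51 the sum was 1245 CPM in D51 5, 789 CPM in D51 4 and 547 CPM in D51 6, the same order as Tgfb1. The sums of satellite cell and myoblast, of endothelial, and of T, B cell and neutrophil markers had this order too. Those of the remaining marker lists, fibro-adipogenic progenitors among them, did not, and the order was not tested. Of 8 markers of fibro-adipogenic progenitors, the stromal cells of muscle, 5 rose, from a sum of 269 to 383 CPM to 548 to 658 CPM. The part of these cell types in the Tgfb1 result was not tested. In whole muscle, more or fewer cells of a type and more or less RNA per cell cannot be told apart.

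Mstn, which encodes myostatin, fell to less than its WT range in every D51 library. It was at 50.6, 63.2 and 74.9 CPM in WT, and in D51 at 19.9, 36.4 and 32.4 CPM. The lowest WT library (WT 1) stayed above the highest D51 library (D51 5). The means were 62.9 ± 12.2 and 29.6 ± 8.62 CPM, a 2.13-fold lower level in D51 (log2 -1.09, SE 0.229, edgeR adjusted p = 0.011). The gene (ENSMUSG00000026100) lies at chr1:53061640-53068079 on the plus strand. Set against the summed fibre markers of the same library, a ratio chosen after the values were seen, Mstn was at 31.9, 39.4 and 47.1 CPM per 100000 CPM of those markers in WT and at 19.5, 36.0 and 22.9 in D51. On that ratio D51 5 lies above WT 1, so the groups overlap, and the WT mean was 1.51 times the D51 mean. The marker sum was itself lower in every D51 library, so dividing by it raises any gene in D51 relative to WT. The ratio was taken only for the members called lower.

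No other ligand of the myostatin, GDF and activin group was called lower. Gdf11, the closest relative of myostatin, was at 14.1, 12.6 and 13.1 CPM in WT against 15.6, 13.3 and 18.1 CPM in D51 (log2 0.24, SE 0.133). Gdf10, a distant BMP relative, differed by 0.42 (SE 0.174) and Inhba, the activin A subunit, by 0.29 (SE 0.283) on the log2 scale, and neither passed the test. Inhbb, the activin B subunit, rose at a low level. It was at 0.996, 0.986 and 1.29 CPM in the WT libraries, and the D51 libraries were at 4.15, 1.84 and 2.08 CPM. D51 4 was far above the other D51 libraries, although all 3 were above WT. Its log2 fold change was 1.31 (SE 0.367, edgeR adjusted p = 0.0313). The call did not hold without D51 4 (0.85), nor without WT 1 (1.25), WT 2 (1.24) or WT 3 (1.43), nor by limma-voom (1.22).

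The promoter windows of 4 members are given here because 3 of these members changed and Gdf11, the near paralog of Mstn, did not pass the test. Each is RefSeq sequence of GRCm38.p6, 5′ to 3′ on the strand of the gene, ending at the base before the annotated start. That of Acvr2b, a receptor gene described below, stops 61 bases before the RefSeq start because a GENCODE exon begins there. Capitals mark, on either strand, CAGAC (the core site of Smad3 and Smad4), GGCGCC (a GC-rich Smad site) or CANNTG (the E-box, bound by MyoD and its relatives).
Tgfb1: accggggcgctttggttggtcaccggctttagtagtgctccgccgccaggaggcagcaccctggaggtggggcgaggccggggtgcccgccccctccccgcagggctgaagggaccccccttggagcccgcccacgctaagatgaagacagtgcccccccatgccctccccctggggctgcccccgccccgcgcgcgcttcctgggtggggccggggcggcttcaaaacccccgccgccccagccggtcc
Mstn: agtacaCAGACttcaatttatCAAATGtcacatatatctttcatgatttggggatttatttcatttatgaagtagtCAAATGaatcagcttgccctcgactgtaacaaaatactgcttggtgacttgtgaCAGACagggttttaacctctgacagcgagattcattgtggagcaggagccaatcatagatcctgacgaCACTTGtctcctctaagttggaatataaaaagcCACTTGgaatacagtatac
Gdf11: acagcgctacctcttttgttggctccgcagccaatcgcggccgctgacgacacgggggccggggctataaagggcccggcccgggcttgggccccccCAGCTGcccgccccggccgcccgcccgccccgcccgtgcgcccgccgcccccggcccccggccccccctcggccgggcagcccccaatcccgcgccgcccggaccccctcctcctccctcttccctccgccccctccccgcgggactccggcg
Acvr2b: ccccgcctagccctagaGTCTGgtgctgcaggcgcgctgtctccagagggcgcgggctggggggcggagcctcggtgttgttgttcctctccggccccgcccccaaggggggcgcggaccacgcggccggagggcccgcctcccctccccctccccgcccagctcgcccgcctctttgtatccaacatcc
The windows are chr7:25686752-25687001 (plus strand) for Tgfb1, chr1:53061390-53061639 (plus) for Mstn, chr10:128891719-128891968 (minus) for Gdf11 and chr9:119401928-119402117 (plus) for Acvr2b. The Mstn window held 2 CAGAC and 4 CANNTG matches, that of Gdf11 1 CANNTG, that of Acvr2b 1 CAGAC, and that of Tgfb1 none of the 3 motifs. RefSeq promoters were found for 38 of the 52 members, 47 promoters in all. In windows of 250 bases, CAGAC matched 48.9% of the members' promoters and 42.2% of all 32851 promoters in the table, GGCGCC 25.5% and 9.59%, and CANNTG 44.7% and 66.2%. Over promoters of the genes tested, the shares were 40.8%, 16.1% and 58.4%. A match describes the letters and shows no binding.

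Of the BMP ligands, Bmp6 fell and Bmp2, Bmp4 and Bmp5 did not pass the test. Bmp6 (ENSMUSG00000039004, chr13:38345107-38500302, plus strand), known for its control of hepcidin in liver, was at 15.5, 32.1 and 28.6 CPM in WT, and in D51 at 6.46, 9.27 and 10.8 CPM. WT 1 was the lowest of its group but still above every D51 library. The means were 25.4 ± 8.77 and 8.85 ± 2.20 CPM, 2.88-fold lower in D51 (log2 -1.52, SE 0.288, edgeR adjusted p = 0.00753). Against the fibre markers of the same library, Bmp6 was at 9.77, 20.01 and 18.0 CPM per 100000 CPM in WT and 6.32, 9.16 and 7.66 in D51, without overlap, and the WT mean was 2.07 times the D51 mean. Its exons share 224 bases, 5.74% of their length, with Txndc5 on the opposite strand, and no source used here gives the strand setting of the counting. Bmp4 was at 5.09, 6.79 and 10.03 CPM in WT against 4.36, 6.91 and 9.81 CPM in D51, a spread within each group far above the log2 difference of -0.05 (SE 0.329). Bmp2 differed by -0.20 (SE 0.200) and Bmp5 by 0.35 (SE 0.220). Per exon length, the share of Bmp6 in the 5 BMP ligands was 45.7 ± 9.10% in WT and 22.2 ± 1.31% in D51, and Bmp5 took 23.5 ± 6.09% and 39.0 ± 0.952%.

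Ltbp2 showed the widest change of any member. The latent TGF-beta binding proteins tether ligand complexes to the matrix, although Ltbp2 is known as the member that does not bind latent TGF-beta. It was at 0.332, 0.274 and 1.00 CPM in the WT libraries, and the D51 libraries were at 7.02, 7.04 and 5.76 CPM. WT libraries held 6, 5 and 14 counts, and D51 libraries 164, 161 and 111. The WT counts alone would not have passed the count filter. The level was 12.9-fold higher in D51 (log2 3.69, SE 0.381, edgeR adjusted p = 8.84e-04), and 4.41 on the log2 scale without WT 3, the highest WT library. The gene (ENSMUSG00000002020) lies at chr12:84783212-84876532 on the minus strand. Even in D51 Ltbp2 made up 2.53 ± 0.316% of the 4 Ltbp genes per exon length, against 0.214 ± 0.180% in WT, and Ltbp4 the largest part (60.3 ± 2.19% in WT and 52.3 ± 1.92% in D51). Ltbp1 differed by 0.11 (SE 0.134), Ltbp3 by 0.21 (SE 0.122) and Ltbp4 by -0.21 (SE 0.115) on the log2 scale, and none of these passed the test.

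Bmp1 encodes a metalloprotease that cleaves procollagen and the propeptide of latent myostatin, and is no BMP ligand despite its name. It was at 34.1, 25.9 and 28.7 CPM in WT, and in D51 at 46.9, 41.4 and 44.2 CPM. The groups did not overlap, and the D51 libraries lay close together. The rise was 1.49-fold (log2 0.58, SE 0.117, edgeR adjusted p = 0.00958). The gene (ENSMUSG00000022098) lies at chr14:70474558-70520234 on the minus strand.

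**Figure D2:**
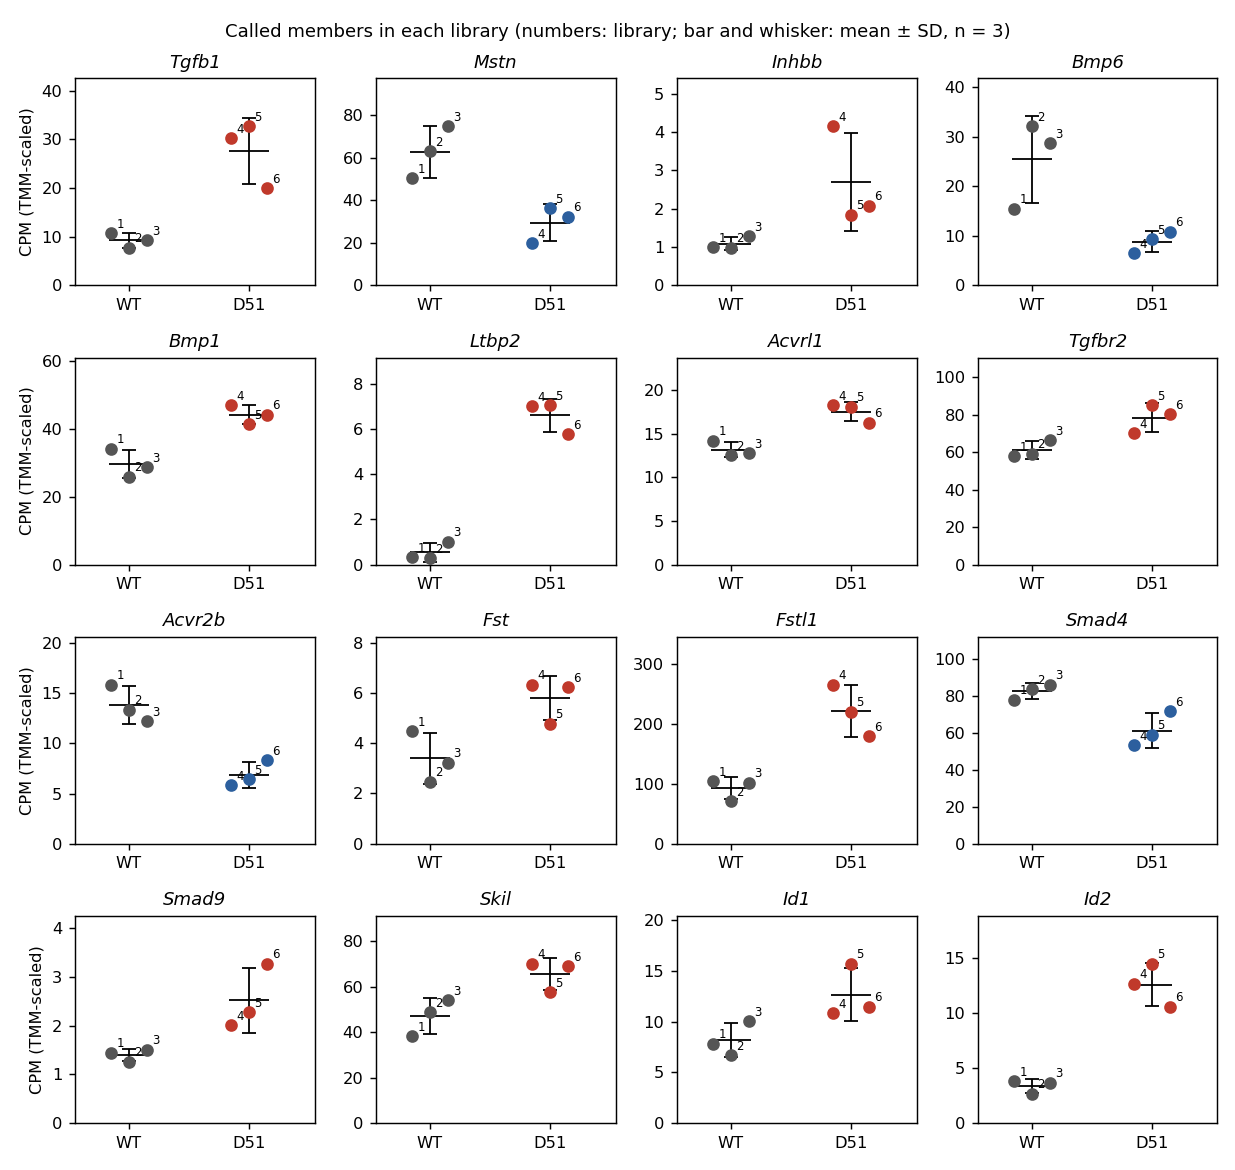
TMM-scaled CPM of the 16 called members in each library (points, with library numbers), with the mean (long bar) and SD (whiskers) of the 3 libraries per group. In every panel the WT points (grey) and the D51 points (red, higher; blue, lower) do not overlap, and D51 4 stands apart for Inhbb at 4.15 CPM.

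Of the 11 receptors, 2 rose and 1 fell, 27.3% called beside 28% of all genes tested. Acvr2b (ENSMUSG00000061393, chr9:119402118-119434995, plus strand), a type II receptor for myostatin and activins, was at 15.9, 13.4 and 12.2 CPM in WT against 5.82, 6.43 and 8.31 CPM in D51. All D51 libraries were below all WT libraries, with D51 6 nearest to WT. The level was 2.03-fold lower in D51 (log2 -1.02, SE 0.168, edgeR adjusted p = 0.00473). Against the fibre markers of the same library, Acvr2b was at 10.02, 8.33 and 7.71 CPM per 100000 CPM in WT and 5.69, 6.35 and 5.89 in D51, without overlap, and the WT mean was 1.45 times the D51 mean. Acvr2a, which binds the same ligands, was at 55.7, 53.8 and 58.1 CPM in the WT libraries, and the D51 libraries were at 44.1, 46.2 and 50.3 CPM. The groups did not overlap, but its log2 difference of -0.25 (SE 0.0861) missed the threshold (edgeR adjusted p = 0.0600). Part of its exons, 7.84% of their length, overlaps Orc4 on the other strand.

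Tgfbr2, the type II receptor of TGF-beta, rose by a small amount. It was at 57.7, 59.1 and 66.3 CPM in WT, and in D51 at 69.9, 84.9 and 80.3 CPM. D51 4, the lowest of its group, was just above WT 3. The log2 fold change was 0.36 (SE 0.104, edgeR adjusted p = 0.0346), and the call was lost without WT 1 (0.31), WT 2 (0.33), D51 5 (0.31) or D51 6 (0.34). Bmpr2, the BMP type II receptor, was at 252, 261 and 284 CPM in WT against 213, 210 and 243 CPM in D51, again without overlap and without a call (log2 -0.26, SE 0.1004, edgeR adjusted p = 0.0909). Within the type II receptors the share of Tgfbr2 was 20.95 ± 0.788% in WT and 30.0 ± 2.26% in D51, and that of Acvr2b 9.94 ± 1.605% and 5.44 ± 0.636%. The shares of Acvr2a (27.6 ± 0.397% and 25.8 ± 0.323%) and Bmpr2 (41.5 ± 1.19% and 38.7 ± 1.78%) were also lower in every D51 library than in any WT library.

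Among the type I receptors only Acvrl1, the ALK1 receptor best known from endothelium, passed the test. It was at 14.2, 12.5 and 12.7 CPM in the WT libraries, and the D51 libraries were at 18.2, 18.1 and 16.3 CPM, with no overlap. The log2 fold change was 0.41 (SE 0.104, edgeR adjusted p = 0.0218), and the call was lost without WT 2 (0.37), WT 3 (0.38), D51 4 (0.38) or D51 5 (0.40). Of 10 endothelial markers 5 fell, from a sum of 507 to 609 CPM in WT to 356 to 448 CPM in D51, and the part of endothelial cells in the Acvrl1 result was not tested. Bmpr1b was at 8.02, 6.52 and 8.74 CPM in WT, and in D51 at 5.52, 6.04 and 4.26 CPM, and its log2 difference of -0.55 (SE 0.183) was just short of a call (edgeR adjusted p = 0.0559). Tgfbr1, the type I partner of Tgfbr2, differed by 0.37 (SE 0.191) and was not called, although it was called higher with a replicate block (0.37, edgeR adjusted p = 0.0187) and without a filter (0.38, edgeR adjusted p = 0.0490). Bmpr1a, a BMP type I receptor, averaged 170 ± 4.28 CPM in WT and 162 ± 23.4 CPM in D51.

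Acvr1b, a type I receptor for activin and myostatin, varied more within the groups than between them. It was at 67.9, 122 and 127 CPM in WT against 56.9, 91.0 and 139 CPM in D51. WT 1 and D51 4 were the low libraries. Acvr1 differed by 0.12 (SE 0.179) and the co-receptor Tgfbr3 by -0.03 (SE 0.180) on the log2 scale.

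**Figure D3:**
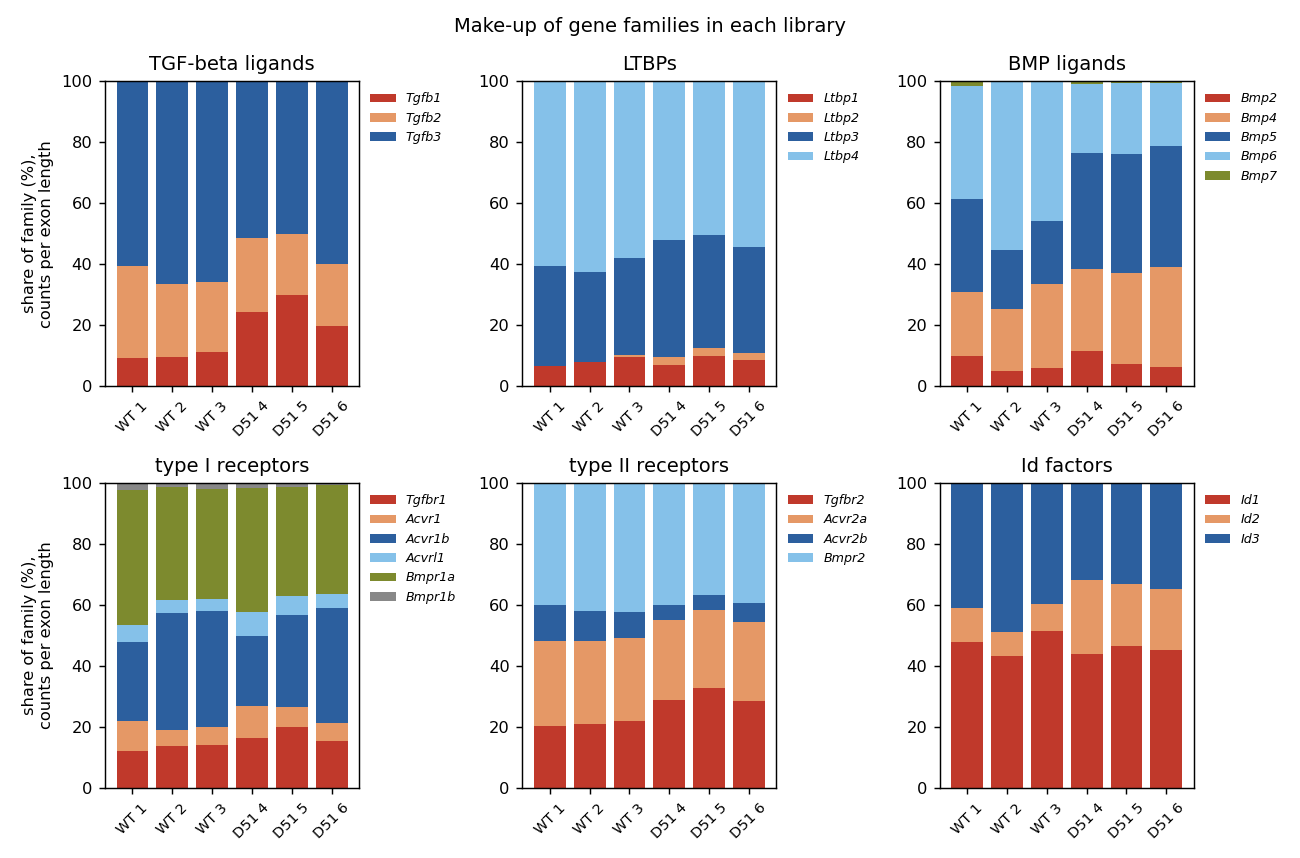
Share of each member in its gene family in each library, in percent of the family's counts per exon length. Tgfb1 took 9.10% to 11.3% of the TGF-beta ligands in WT and 19.6% to 30.0% in D51, Bmp6 36.8% to 55.0% and 20.7% to 23.1% of the BMP ligands, and Id2 8.08% to 11.0% and 19.8% to 24.3% of the Id genes.

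Of the antagonists, both tested follistatin family members rose and the BMP antagonists Nog and Chrd did not pass the test. Fst encodes follistatin, which binds activins and myostatin. It was at 4.48, 2.47 and 3.22 CPM in the WT libraries, and the D51 libraries were at 6.33, 4.77 and 6.23 CPM. WT 1 lay close below D51 5, the lowest of the D51 libraries. The log2 fold change was 0.77 (SE 0.242, edgeR adjusted p = 0.0479), at the edge of the threshold, and the call was lost without WT 2 (0.57), WT 3 (0.72), D51 4 (0.69), D51 5 (0.90) or D51 6 (0.71).

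Fstl1 (ENSMUSG00000022816, chr16:37776873-37836514, plus strand), a secreted follistatin-like glycoprotein made mostly by stromal cells, was the most abundant of the antagonist group. It was at 104, 71.6 and 102 CPM in WT, and in D51 at 266, 220 and 180 CPM. D51 6, the lowest of its group, was well above the highest WT library. The rise was 2.40-fold (log2 1.26, SE 0.186, edgeR adjusted p = 0.0030). The stromal marker sum given above moved in the same direction, and its part in the Fstl1 result was not tested. Nog differed by -0.15 (SE 0.210) and Chrd by -0.17 (SE 0.198) on the log2 scale.

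Of the 8 Smads 1 rose and 1 fell, 25% called beside 28% of all genes tested. Smad4, the common partner of both branches, was at 78.2, 84.0 and 86.4 CPM in WT against 53.4, 59.1 and 71.8 CPM in D51. D51 6 was the closest to WT. The level was 1.35-fold lower in D51 (log2 -0.43, SE 0.119, edgeR adjusted p = 0.0300). The call was lost without WT 2 (-0.43), WT 3 (-0.41), D51 4 (-0.34) or D51 5 (-0.40), and with scaling by library size alone (-0.09). Against the fibre markers of the same library Smad4 was at 49.3, 52.4 and 54.3 CPM per 100000 CPM in WT and at 52.2, 58.4 and 50.9 in D51, so that the groups overlapped and the WT mean was 0.966 times the D51 mean. Smad4 was lower in CPM and not lower against the summed markers, which were themselves lower in every D51 library. Ratios to single markers were not taken, and the part of fibre RNA in the Smad4 result was not tested.

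Smad9, a Smad of the BMP branch, rose from a very low level. It was at 1.44, 1.26 and 1.504 CPM in the WT libraries, and the D51 libraries were at 2.01, 2.27 and 3.27 CPM. D51 6 was the highest here. The log2 fold change was 0.84 (SE 0.258, edgeR adjusted p = 0.0433), and the call was lost without WT 1 (0.86), WT 2 (0.76), WT 3 (0.88), D51 5 (0.92) or D51 6 (0.61), and by DESeq2 (0.84) and limma-voom (0.79). Smad9 made up 2.24 ± 0.181% of the BMP-branch Smads per exon length in WT and 3.93 ± 0.805% in D51, so Smad1 and Smad5 supplied nearly all of these transcripts. Smad1 differed by 0.09 (SE 0.106), Smad5 by -0.04 (SE 0.0864) and Smad3 by -0.10 (SE 0.106). Smad2 was at 13.9, 13.8 and 12.6 CPM in WT, and in D51 at 17.0, 15.01 and 16.1 CPM, without overlap and without a call (log2 0.26, SE 0.102, edgeR adjusted p = 0.0965). The inhibitory Smads, themselves early targets of the pathway, differed by -0.20 (Smad6, SE 0.238) and 0.06 (Smad7, SE 0.192), and neither was called.

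Of the co-repressors that hold Smad complexes inactive, Skil rose and Ski did not pass the test. Skil was at 38.3, 48.8 and 54.0 CPM in WT against 70.2, 57.7 and 69.0 CPM in D51. D51 5 was just above WT 3. Its log2 fold change was 0.48 (SE 0.140, edgeR adjusted p = 0.0361), and the call was lost without WT 1 (0.35), WT 2 (0.50), D51 4 (0.43) or D51 6 (0.44). Ski averaged 73.3 ± 7.68 CPM in WT and 71.6 ± 0.936 CPM in D51. Neither Smurf ligase, which mark receptors and Smads for degradation, was called, although each was lower in every D51 library. Smurf1 was at 34.0, 26.7 and 26.4 CPM in the WT libraries, and the D51 libraries were at 24.1, 25.9 and 21.9 CPM (log2 -0.28, SE 0.126). Smurf2 was at 59.5, 58.2 and 63.7 CPM in WT, and in D51 at 51.3, 48.5 and 56.5 CPM (log2 -0.21, SE 0.0904). At an unadjusted p under 0.05, 1 of the 2 was lower, and DESeq2 and limma-voom called 0.

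The Id genes encode helix-loop-helix proteins that block MyoD and its partners, and are classical targets of the BMP Smads. Id2 rose most. It was at 3.76, 2.63 and 3.65 CPM in WT against 12.6, 14.4 and 10.5 CPM in D51. The lowest D51 library was far above the highest WT library. The rise was 3.75-fold (log2 1.91, SE 0.189, edgeR adjusted p = 7.48e-04), and the gene (ENSMUSG00000020644) lies at chr12:25093799-25097140 on the minus strand. Id1 was at 7.80, 6.68 and 10.03 CPM in the WT libraries, and the D51 libraries were at 10.8, 15.7 and 11.5 CPM. D51 4 was close above WT 3. The Id1 call (log2 0.64, SE 0.198, edgeR adjusted p = 0.0447) was lost without WT 1 (0.60), WT 2 (0.51) or D51 5 (0.46).

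Id3 was at 10.3, 11.7 and 12.0 CPM in WT, and in D51 at 12.1, 17.2 and 13.6 CPM, barely separated and not called (log2 0.34, SE 0.151, edgeR adjusted p = 0.129). Id2 took 9.32 ± 1.4996% of the 3 Id genes per exon length in WT and 21.5 ± 2.47% in D51, while Id3 took 43.2 ± 4.88% and 33.2 ± 1.52%. Of the satellite cell and myoblast markers 4 of 8 rose, from a sum of 50.9 to 54.6 CPM in WT to 114 to 171 CPM in D51. None of these markers was at 0, and their part in the Id2 result was not tested.

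Tgfb1, Mstn, Bmp6, Bmp1, Ltbp2, Acvr2b, Fstl1 and Id2 kept their call under each of 14 alternatives, which changed the scaling, filter or test, added a replicate block, or left out a library. Acvrl1, Fst, Id1, Inhbb, Skil, Smad4, Smad9 and Tgfbr2 lost it under at least 1. In 8 of the 16 called members D51 6 was the D51 library nearest to WT. Without D51 6, 8 members were called higher and 7 lower, the lower ones then including Acvr2a, Bmpr2 and Smurf2. The count of members called higher was 5 without WT 2 and 7 without D51 5.

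**Figure D4:**
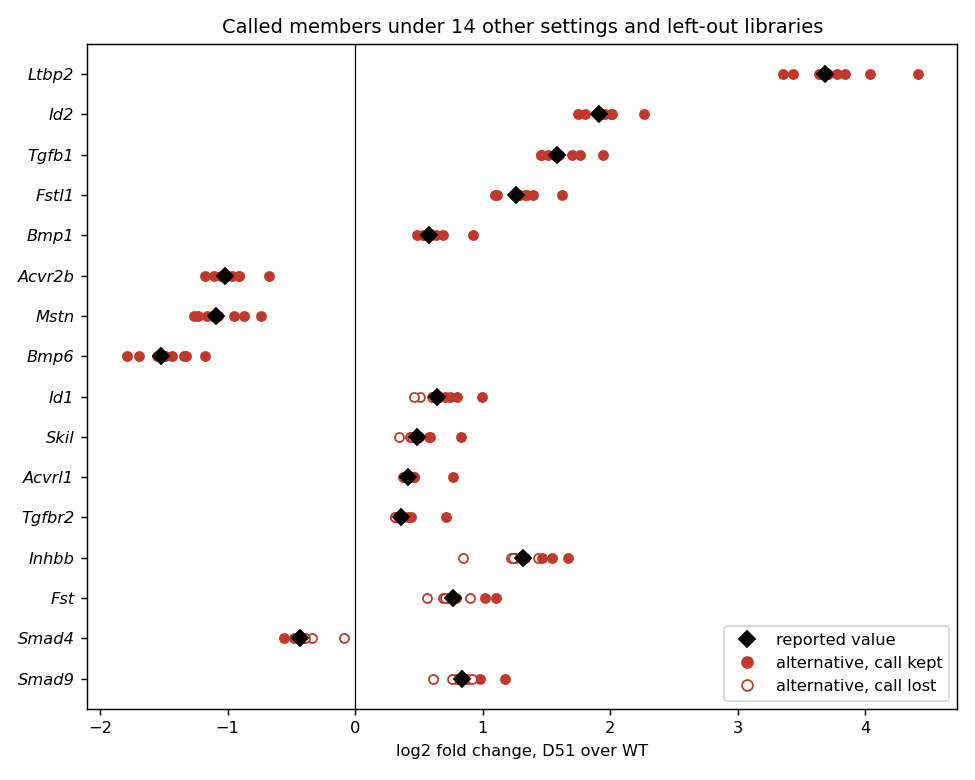
Log2 fold change, D51 over WT, of the 16 called members as reported (black diamonds) and under the 14 alternatives (circles; filled where the call was kept, open where it was lost). The upper 8 members have filled circles only, from Ltbp2 at 3.69 down to Bmp6 at -1.52, and the 8 below have at least 1 open circle.

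The authors' deposited table of the same comparison lists 47 of the members, 10 higher and 8 lower at an adjusted p under 0.05, beside 37.9% of its 13958 genes (19.1% higher and 18.8% lower). Of the 16 members called here, 14 were called there in the same direction and 0 in the opposite one. Smad9 (adjusted p 0.106) and Id1 (0.0760) were called here and not in the authors' deposited table. Bmpr1b (0.0468), Acvr2a (0.00832), Bmpr2 (0.0246) and Smurf1 (0.0490) were called in the authors' deposited table and not here. Each of those 4 was lower in D51.

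Compared per exon length, which allows levels of different genes to be set roughly side by side, the members spanned a wide range. The length counts every annotated exon of a gene and can exceed that of the transcript in use. In WT the highest were Smad3 (28.8 CPM per kilobase), Bmpr1a (26.8), Acvr1b (23.9), Mstn (23.2) and Smad4 (22.3). In D51 the highest was Fstl1, at 45.2 CPM per kilobase against 18.8 in WT. Mstn was at 10.9 CPM per kilobase in D51. Tgfb1 was at 1.83 CPM per kilobase in WT and 5.48 in D51, below Tgfb3 in both groups (11.8 and 11.9). These values rest on lengths of 5042 bases for Tgfb1 and 3383 for Tgfb3. Id2 went from 1.37 to 5.14 CPM per kilobase.

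Other genes of the pathway, 67 in 4 lists, were described in the same way, and 49 were tested. Of these 11 rose and 8 fell, 38.8% of those tested beside the 28% of all genes, and their median log2 fold change was 0.09. Among the other ligands (4 of 16 tested) Gdf6 rose at a trace level, from 1, 3 and 2 counts in WT to 18, 11 and 14 in D51 (log2 2.40, SE 0.471, edgeR adjusted p = 0.00862). Gdf6 passed the count filter only through the D51 libraries, where it was high, so its call is weak support for a rise. The filter at 1 CPM left it out, and the authors' deposited table has no value for it. Bmp3 fell (log2 -1.60, SE 0.508, edgeR adjusted p = 0.0482), a call lost without WT 1 (-1.11), WT 2 (-1.77), WT 3 (-1.83), D51 4 (-1.20) or D51 5 (-1.80). Of 9 other receptors and co-receptors, Cd109, a membrane protein that binds TGF-beta and restrains its signal, rose (log2 1.59, SE 0.230, edgeR adjusted p = 0.00280). Eng, the endothelial co-receptor endoglin, fell (log2 -0.44, SE 0.111, edgeR adjusted p = 0.0217), a call lost without WT 1 (-0.39), WT 2 (-0.46) or D51 5 (-0.41).

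Among 23 tested extracellular regulators 7 rose and 2 fell, 39.1% called beside 28% of all genes tested, with a median of 0.31. Bgn, a matrix proteoglycan that binds TGF-beta, was at 93.0, 87.3 and 105 CPM in WT against 329, 316 and 254 CPM in D51 (log2 1.65, SE 0.129, edgeR adjusted p = 3.30e-04). Wfikkn2, a secreted binder of myostatin and Gdf11, fell from 17.5, 13.1 and 11.5 CPM in WT to 6.29, 6.08 and 6.96 CPM in D51 (log2 -1.13, SE 0.172, edgeR adjusted p = 0.00339). Itgav, the integrin subunit that helps to release latent TGF-beta, rose by 0.57 (SE 0.0898) and Bmper, a BMP-binding protein, by 1.11 (SE 0.200) on the log2 scale. The integrin beta subunits in the list did not rise with Itgav. Itgb8 was called lower (log2 -0.75, SE 0.231), a call lost under 10 of 14 alternatives, and Itgb6 was not called (0.09, SE 0.188). Without WT 2 only 3 of these regulators were called higher. The count of lower calls was 1 without each of WT 1, WT 2, WT 3, D51 4 and D51 5, and 3 without D51 6.

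Of 13 tested intracellular regulators 2 rose and 4 fell, 46.2% called beside 28% of all genes tested, with a median of -0.13. Both that rose, Tgif1 (log2 1.09, SE 0.198) and Pmepa1 (log2 0.84, SE 0.153), restrain Smad2 and Smad3 signals. The 4 that fell were Wwp1, a ubiquitin ligase (log2 -0.74, SE 0.137), Ppm1a, a Smad phosphatase (log2 -0.52, SE 0.0978), Usp15, a deubiquitinase (log2 -0.37, SE 0.101) and Zfyve9, the Smad anchor SARA (log2 -0.55, SE 0.151). Without any 1 of WT 1, WT 2, WT 3, D51 4 or D51 5, 2 of these falls were called, those of Usp15 and Zfyve9 being lost each time.

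Lists of target genes of TGF-beta through Smad3 and of BMP were also described, and the difference between the lists was not tested. The BMP list was not restricted to genes that BMP induces. Of 20 TGF-beta targets 12 rose, 60% beside 16.1% of all genes, and their median log2 fold change was 0.94. By edgeR 0 of them fell, 0 were lower at an unadjusted p under 0.05, and DESeq2 and limma-voom also called 0 lower. Fn1, fibronectin, rose by 1.54 (SE 0.179), Timp1, a metalloprotease inhibitor, by 4.06 (SE 0.518) and Postn, periostin, by 3.22 (SE 0.453) on the log2 scale. The value for Postn was 3.87 without WT 3. The 8 targets not called included Col1a1 (log2 0.24, SE 0.263) and Col1a2 (log2 0.16, SE 0.251), the collagen I chains. The others were Acta2 (0.24), Lox (0.63), Snai1 (0.62), Cdkn2b (0.51), Tagln (-0.15) and Bhlhe40 (-0.19). The list was chosen with earlier results of these data known. Many of these targets are also expressed by the stromal cells and macrophages whose markers rose, and the part of those cells was not tested. Of 6 tested BMP targets outside the Id genes, Runx2, a bone transcription factor, rose (log2 1.91, SE 0.248, edgeR adjusted p = 0.00198), and the list median was 0.38. That is 16.7% beside 16.1% of all genes called higher, and 3 of the 6 were higher at an unadjusted p under 0.05. None of them was lower by edgeR, also at an unadjusted p under 0.05, by DESeq2 or by limma-voom. The atrophy ligases Trim63 (log2 -0.18, SE 0.275) and Fbxo32 (log2 -0.62, SE 0.302), which are raised in muscle wasting, were not called.

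**Figure D5:**
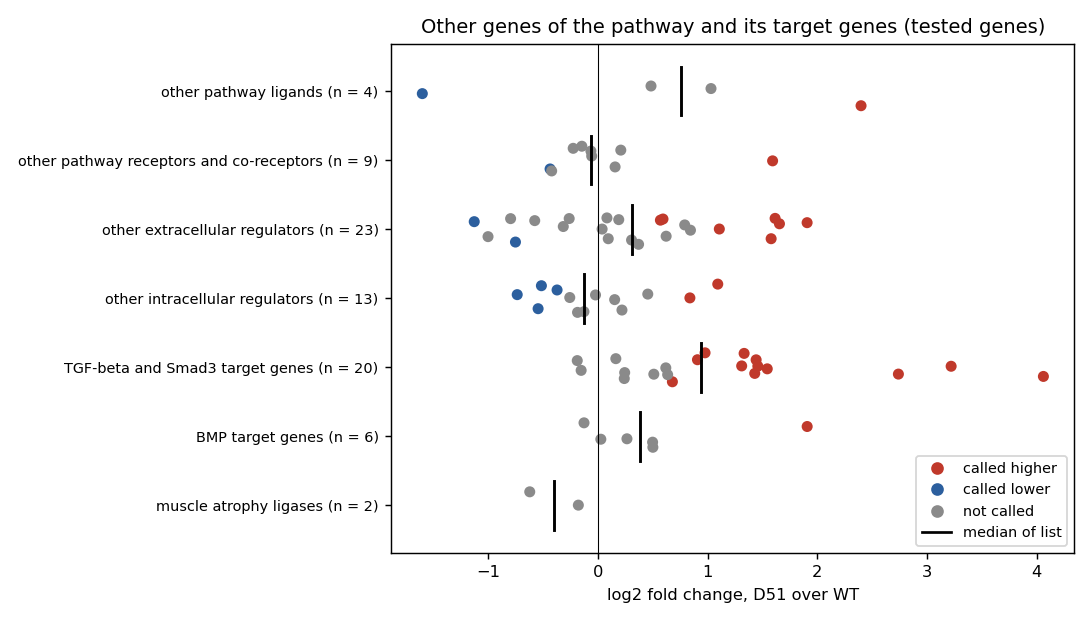
Log2 fold change, D51 over WT, of tested genes in the other pathway lists and in the target lists (points; red, called higher; blue, called lower; grey, not called), with the median of each list as a black bar. The TGF-beta and Smad3 targets have their median at 0.94 with 12 genes called higher and 0 lower. The other receptors and the intracellular regulators have medians of -0.07 and -0.13, with single genes on both sides of 0.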

How the data were processed

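Whole-number read counts per gene and the exon length of each gene, counts not normalized, were deposited by the authors for 6 libraries (3 WT, 3 D51). Per the submitters' processing notes, the build was GRCm38 and the tools edgeR 3.30.1, featureCounts 1.6.0 and FastQC 0.11.4. No source used here gives the aligner, annotation release or strand setting. Per the file headers, the authors' own result table, also deposited, gives for each gene a log2 fold change, average log2 CPM, a likelihood-ratio score, a p-value and its adjusted value, and −log10 p-values. The deposited RPKM values were not used.

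Counts were tested with edgeR 4.0.16 in R 4.3.3: TMM scaling, the default filter by group (14335 genes left), the quasi-likelihood F-test, two-sided, with Benjamini-Hochberg adjustment, called under 0.05. The SE is the absolute log2 fold change over the square root of F. Family shares used counts per exon length and an exact permutation test. Coordinates are from GENCODE M21, which has 54165 of the 54232 gene IDs, 52697 with the deposited exon length (not Ltbp1, Ltbp3 and Smad2). Exons of Chrd share 239 bases with Thpo on the other strand, so its counts are less certain. The script was tested on simulated data. Within-group chi-square values of 8.08 to 42.9 per degree of freedom show no library deposited again under another name. Alternatives are in the closing section and used DESeq2 1.42.0 and limma 3.58.1.

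The members and all gene lists were chosen with earlier results of these data known. Named genes are all members, up to 4 genes with the smallest adjusted p per list, and Dmd. One gene that this rule names is not reported here. Usp15, Zfyve9, Itgb6, Itgb8, Col1a1, Col1a2 and the other uncalled TGF-beta targets were named after their values were seen. Library totals, 15681945 to 21020353, limit the precision of genes near 1 CPM such as Smad9, Inhbb and Ltbp2 in WT. The default filter keeps a gene that is high in a single group, as Gdf6 and Ltbp2 were in D51.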

Additional observations from a re-analysis of the deposited data

How the results depend on the processing

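Alternatives changed the scaling (size factors of DESeq2, library size alone, or TMM leaving out the 20 most abundant genes), the filter (none, or at least 1 CPM in 3 libraries) or the test (DESeq2's Wald test or limma-voom), added a replicate block, or left out each library in turn. The members called were 12 higher and 4 lower as reported, 11 and 4 by DESeq2, 10 and 4 by limma-voom, 13 and 5 without a filter, 24 and 3 with library size alone, and 5 to 10 higher and 3 to 7 lower with a library left out. All genes called went from 2309 higher and 1701 lower to 5394 and 334 with library size alone, and to 1346 to 2662 and 663 to 2157 with a library left out. None of the 16 called members changed direction under any of these.

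With library size alone, the other ligands had 2 higher and 0 lower calls, the other receptors 0 lower, the extracellular regulators 14 higher and 1 lower, the intracellular ones 6 higher and 1 lower, and the BMP targets 4 higher. The uncalled members whose sign then changed were Tgfb2 (0.34), Bmp2 (0.14), Bmp4 (0.28), Ltbp4 (0.13), Acvr1b (0.19), Bmpr1a (0.27), Acvr2a (0.0932), Bmpr2 (0.0881), Tgfbr3 (0.32), Nog (0.19), Chrd (0.17), Smad3 (0.24), Smad5 (0.31), Smad6 (0.14), Ski (0.32), Smurf1 (0.0782) and Smurf2 (0.13), as the whole scale shifts under this alternative, and Bmpr1a, Smad5 and Ski were then called higher. Without a filter the other ligands had 2 higher calls, the receptors 2 lower, the extracellular regulators 11 higher and the BMP targets 2 higher. At 1 CPM the other ligands had 0 calls in either direction because fewer genes were tested. By DESeq2 the receptors had 2 lower and the extracellular regulators 1 lower call, and by limma-voom the ligands had 0 lower and Tgfb2 was at 0.0218. The cause was not tested.

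With a library left out, lower calls were 0 to 1 for the other ligands, 0 to 2 for the receptors, 1 to 3 for the extracellular regulators (3 to 7 higher) and 2 to 4 for the intracellular regulators. Uncalled members near 0 changed sign: Tgfb2 from -0.21 to 0.35, Tgfb3 from -0.0717 to 0.15, Bmp4 from -0.37 to 0.23, Acvr1 from -0.0378 to 0.31, Acvr1b from -0.52 to 0.12, Bmpr1a from -0.19 to 0.0103, Tgfbr3 from -0.14 to 0.15, Smad5 from -0.11 to 0.00318, Smad6 from -0.37 to 0.0622, Smad7 from -0.19 to 0.17 and Ski from -0.10 to 0.0456. Counted without exon length, the share differences were 2.97 percentage points for Ltbp2, -1.59 for Acvr2b and 17.2 for Id2.

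A replicate block by the labels' replicate number gave 13 members higher and 4 lower (2508 and 1960 of all genes), 0 lower other ligands, 4 lower extracellular regulators and 0.0229 for Tgfb2. The deviations of same-numbered libraries correlated at 0.352, -0.0100 and 0.0562, and not every library correlated best with its own number, so the numbers are not taken as pairs. Depth limits the 5 untested members and those near 1 CPM.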

Other observations

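Several members that did not pass the test differed more between libraries of a group than between the groups. Acvr1b ran from 67.9 to 127 CPM in WT and from 56.9 to 139 CPM in D51, and Bmp4 from 5.09 to 10.03 CPM and from 4.36 to 9.81 CPM. Both were lowest in WT 1 and D51 4. Tgfb2 went the other way, with its highest values in WT 1 (40.9 CPM) and D51 4 (34.8 CPM). WT 1 and D51 4 were the pair with the highest correlation of deviations (0.352), and no label beyond the replicate number ties them.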
